A study of Drosophila melanogaster with 4 samples.

Results

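The regions described are short stretches carrying histone H3 trimethylated at lysine 9 (H3K9me3) along the euchromatic part of the left arm of chromosome 3 (3L) of Drosophila melanogaster. They were taken from a list of enriched clusters that covers the whole series, and are called islands here. An island is a cluster on 3L whose midpoint lies above position 100000 and at most 3000000 bp before the end of the 24543557 bp arm sequence. The outer 100 kb beside the telomere and the inner 3 Mb beside the centromere were thereby left out, and the remaining 21443557 bp are called the stretch. Of the 3941 clusters in the series-wide list, 327 met this rule. Positions are on FlyBase release 5, with low numbers at the telomeric end.

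The material was whole wild-type Oregon-R embryos (Oregon-R-modENCODE) aged 14 to 16 h, so each list averages over all cell types of the late embryo. Chromatin was crosslinked with 1.8% formaldehyde and precipitated with an H3K9me3 antibody. Both ChIP libraries had an input library each, and both yielded their own list of clusters beside the series-wide one. There is no other strain, stage or treatment, so the values below compare islands with each other, lists with each other, and 3L with other arms. The labels do not say whether the libraries came from separate embryo collections, so the spread between them may be technical. The number of reads per library is unknown.

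H3K9me3 is the histone mark of constitutive heterochromatin. In Drosophila it is laid down by the Su(var)3-9 family and by Eggless, the fly SetDB1 methyltransferase, and it is bound by Heterochromatin Protein 1, which compacts and silences the underlying chromatin. Most of it lies in satellite repeats and transposable elements around the centromeres. The chromosome arms are mainly euchromatin, where the mark is known to occur as scattered small patches, many of them at transposable element insertions. Gene names are not given here, because the gene table used here is on another release, and sequences of the islands are not printed for the same reason.

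The islands were short, and together they covered little of the stretch. They occupied 767 kb, or 3.58% of it, at 15.2 islands per Mb. The shortest was 1001 bp, the median 1966 bp and the longest 10973 bp, and the middle of the distribution ran from 1575 bp to 2414 bp (quartiles). Only 19 islands reached 5 kb, and these held 18.8% of all island bases. The libraries gave smaller sets for the same stretch. Replicate 1 held 207 clusters covering 2.42% and replicate 2 held 199 covering 2.29%, a mean of 2.35% ± 0.0891 (SD, n = 2). Median cluster length was 2035 bp in replicate 1 and 1994 bp in replicate 2, so typical length differed little between the lists while the number of clusters did.

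Just inside the outer limit lay an island at 100622 to 104010 (3389 bp, score 1.28) and the next one only at 319379 to 321235 (1857 bp, score 0.512). Just outside that limit were clusters at 52333 to 56993 (4661 bp, score 0.884) and 58057 to 79884 (21828 bp, score 1.96). At the inner limit the last islands were 21479371 to 21480640 (1270 bp, score 0.977) and 21526736 to 21527984 (1249 bp, score 0.517), both found in neither library. The first clusters beyond it were 21549362 to 21553995 (4634 bp, score 0.866) and 21555093 to 21556358 (1266 bp, score 0.514). The score is the authors' own value per cluster. Its scale is not stated, and it is used here only to describe and rank clusters within a list.

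Against the centromeric side of the same arm the islands were small and far apart. The inner 3 Mb of 3L held 114 clusters with a median length of 6753 bp, a longest of 73444 bp and a median score of 2.17, and was covered to 48.1%. The stretch held 327 clusters with a median score of 0.695. It therefore carried 73.6% of the series-wide clusters of 3L but 34.2% of their bases. Gaps between neighbouring clusters had a median of 2131 bp in the inner 3 Mb and of 35172.5 bp in the stretch. These are values of 1 arm, set side by side without a test. In the ranking of all 3941 series-wide scores, the median island stood above 26.2% of clusters, and 67 of the 327 islands (20.5%) reached the median score of the whole list.

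Islands were present along the entire stretch, at an uneven density. Counted in 21 full windows of 1 Mb from the outer limit, the number ran from 7 to 29 with a median of 15, and covered share ran from 1.32% to 8.84% with a median of 3.21%. The densest window, 11100001 to 12100000, held 29 islands, of which 15 were found in both libraries. Replicate 1 had 17 clusters there and replicate 2 had 21, with covered shares of 5.43% and 6.09%. It was the window with most clusters in replicate 2. In replicate 1 it shared the top place with the outermost window, 100001 to 1100000, which held 26 islands and 13 clusters of replicate 2.

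The emptiest window was 4100001 to 5100000, with 7 islands, of which 1 was found in both libraries. Replicate 1 had 5 clusters there and replicate 2 had 1, and replicate 2 covered 0.186% of it. The window from 18100001 to 19100000 held 14 islands, of which 2 were found in both libraries, and it had 4 clusters in replicate 1, the lowest count of that library. Over the 21 windows the cluster counts of both libraries had a Spearman's rho of 0.764, given as a description of windows of the same arm. Cut into 3 equal parts, the stretch held 100 islands in its outer, 113 in its middle and 114 in its inner part, with 69, 71 and 67 clusters in replicate 1 and 65, 71 and 63 in replicate 2. The middle part had the highest covered share in all 3 lists, 3.84% in the series-wide list, 2.57% in replicate 1 and 2.53% in replicate 2.

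**Figure D1:**
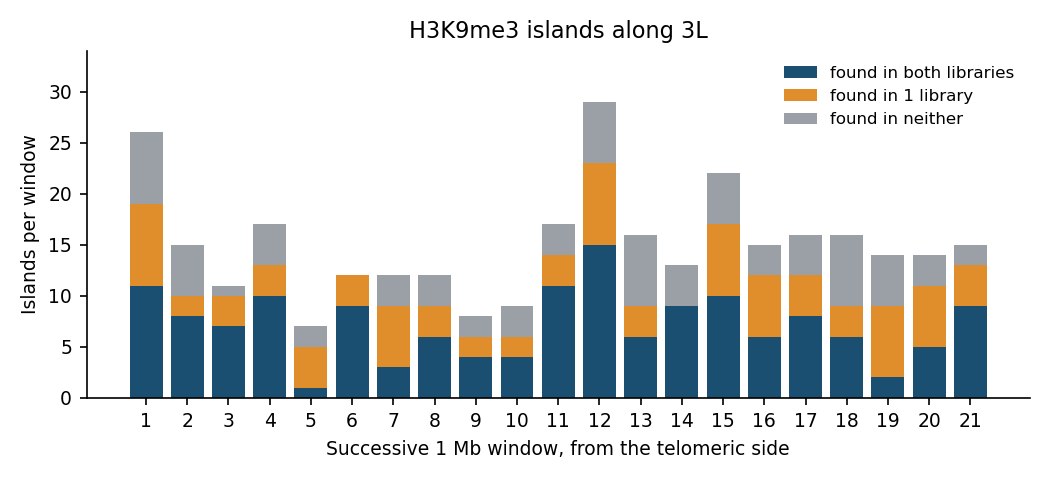
Number of islands (vertical axis) in each of 21 successive 1 Mb windows of 3L from the telomeric side (horizontal axis), with colours for islands found in both libraries, in 1 or in neither. Window 12 is the tallest at 29 islands and window 5 the lowest at 7.

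Each island was then looked up in the list of either library, where an overlap of at least 1 bp counted as found. Of the 327 islands 151 were found in both libraries, which is 46.2% (95% exact Clopper-Pearson interval 40.7 to 51.7%, counting error only). Over all series-wide clusters the same share was 61.1%. A further 90 islands (27.5%) were found in 1 library, 51 in replicate 1 and 39 in replicate 2, against 18.8% of all clusters. The remaining 86 islands (26.3%) were found in neither library, against 20.1% of all clusters. The share of islands found in both libraries was thus lower than that of the whole list, a difference that was not tested. The whole list also held longer clusters (median 2484 bp, against 1966 bp for the islands) with higher scores (median 1.34 against 0.695). The shares were not compared at equal length or score. How the series-wide list combines the replicates is not stated, so an island found in neither library is a call of that list alone. The share in both is therefore not a direct measure of how far the libraries matched. Set against each other, 153 of the 207 replicate 1 clusters of the stretch (73.9%) overlapped a replicate 2 cluster. Of the 199 replicate 2 clusters 154 (77.4%) overlapped a replicate 1 cluster. Of the bases covered by either library, 62.9% were covered by both.

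Length separated the islands found in both libraries from the rest. All 19 islands of 5 kb or more were found in both. From 2500 to 4999 bp 46 of 52 were, from 2000 to 2499 bp 65 of 77 (84.4%), from 1500 to 1999 bp 20 of 108 (18.5%), and below 1500 bp 1 of 71. The shortest cluster in the library lists is 1301 bp long, so an island of that length or less could be found only if a library called a longer region there. Median length was 2417 bp for islands found in both libraries, 1823.5 bp for those in 1 and 1239 bp for those in neither. In bases the 151 islands found in both made up 63.1% of all island sequence. Base by base, both libraries covered 50.8% of island sequence, 1 library alone covered 27.8%, and 21.5% lay in clusters of neither.

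Islands missing from a library lay at varied distances from the clusters of that library. Those clusters were themselves sparse, with median gaps of 59893 bp in replicate 1 and 59417.5 bp in replicate 2. Whether the missing islands lay farther from them than other positions of the stretch was not tested. Some lay close, such as 1047033 to 1048649, found in neither library and 225 bp from a replicate 1 cluster. For the 51 islands found in replicate 1 alone, the nearest replicate 2 cluster lay a median of 45220 bp away. For the 39 found in replicate 2 alone, the nearest replicate 1 cluster lay a median of 26807 bp away. Islands found in neither lay a median of 25465 bp from replicate 1 clusters and 37237.5 bp from replicate 2 clusters. In the other direction, 205 of the 207 replicate 1 clusters of the stretch and 195 of the 199 replicate 2 clusters overlapped a series-wide cluster. The few that did not had scores of at most 0.716 and 0.817.

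Where both libraries called an island, they drew it alike. The median island of this kind was covered to 92.7% by replicate 1 and to 90.3% by replicate 2, and 148 of 151 were covered to at least 50% in each. For 146 islands that matched exactly 1 cluster in each library, starts differed between the libraries by a median of 124.5 bp and ends by 122.5 bp. Starts lay within 200 bp of each other for 101 of them and ends for 104. The largest differences were 1916 bp and 2130 bp. Scores of both libraries were ranked alike over these 146 islands, with a Spearman's rho of 0.828, and cluster lengths with a rho of 0.802. These describe regions of the same libraries, which are not independent replicates, and carry no p.

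The 10 longest islands, all found in both libraries, held 11.6% of island bases and were spread over the arm from position 1192099 to 20477894. The longest, at 1192099 to 1203071 (10973 bp), had a score of 1.46 in the series-wide list, 1.61 in replicate 1 and 1.82 in replicate 2. Replicate 1 covered 72.6% of it with 1 cluster and replicate 2 covered 84.9% with 2. Almost as long was the island at 9910280 to 9921237 (10958 bp), which replicate 1 covered to 98.6% with 2 clusters and replicate 2 to 70.3% with 1. It stood alone, 454510 bp from the island before it and 237536 bp from the next.

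The third and the fourth longest lay in the densest window. The island at 11689695 to 11700573 (10879 bp) scored 2.17 in replicate 1 and 2.02 in replicate 2. That at 11468723 to 11479400 (10678 bp) scored 1.69 and 1.74, and is part of a local group described below. After these 4 islands above 10 kb the next longest was 8121 bp. That island, at 5451780 to 5459900, had scores of 2.66 in the series-wide list, 2.69 in replicate 1 and 2.92 in replicate 2, and no other island lay within the 295410 bp before it.

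The others of the 10 longest had lengths from 6701 to 7983 bp. They lay at 3487298 to 3495280, 20470059 to 20477894, 10645398 to 10653166, 7006329 to 7013645 and 2201679 to 2208379. The second of these, 7836 bp long, scored 2.55 in the series-wide list, 2.55 in replicate 1 and 2.57 in replicate 2. It was covered to 97.1% by replicate 1 and 99.7% by replicate 2. The last was the least complete, covered to 43.4% by replicate 1 and 37.7% by replicate 2, the lowest values of any island found in both libraries.

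The highest scores did not belong to the longest islands. The 2 islands with the top scores were each 1001 bp long, the minimum in the list, and found in neither library: 16938945 to 16939945 (score 4.06) and 13519340 to 13520340 (3.80). In the ranking of the whole series-wide list they stood above 99.4% and 98.5% of clusters. The nearest clusters of either library were at least 65298 bp from the former and 45720 bp from the latter. The next score, 2.96 at 2064555 to 2066722 (2168 bp), was also found in neither library, with library clusters 2107 and 2038 bp away. After it came the 8121 bp island above, and then 2.64 at 8230423 to 8231817 (1395 bp), again found in neither.

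Over all 327 islands, longer ones tended to score higher, with a Spearman's rho of 0.562 between length and score. The relation differed with the number of libraries: rho was 0.782 for the 151 islands found in both, 0.460 for the 90 found in 1 and -0.158 for the 86 found in neither. Lengths ran from 1490 to 10973 bp, from 1001 to 4017 bp and from 1001 to 3303 bp in that order. A narrower range of lengths can itself lower rho, and the 3 classes were not compared over equal lengths. By length, the median score was 0.593 below 1500 bp, 0.531 from 1500 to 1999 bp, 0.840 from 2000 to 2499 bp, 1.18 from 2500 to 4999 bp and 1.61 from 5 kb. Of 15 islands with a score of at least 2, a limit chosen after the scores were seen, 5 were found in both libraries, 1 in replicate 2 alone and 9 in neither. Those 9 were between 1001 and 2168 bp long.

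**Figure D2:**
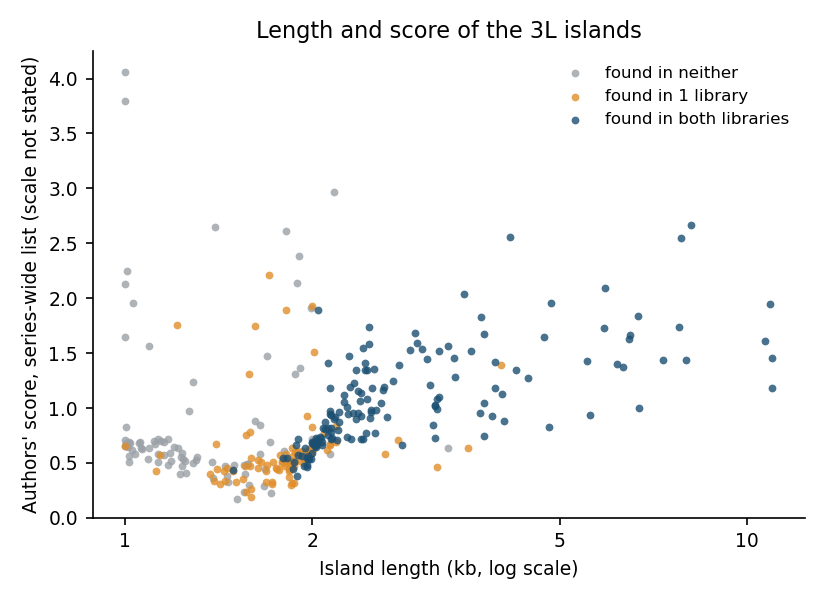
Length in kb (horizontal axis, log scale) against the authors' score in the series-wide list (vertical axis, scale not stated) for the 327 islands, coloured by the number of libraries in which they were found. Islands of 5 kb or more are all found in both libraries, while the top scores of 4.06 and 3.80 belong to islands of 1001 bp found in neither.

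No island missing from a library reached 5 kb, although the longest of them exceeded the upper quartile of island length, 2414 bp. Of those found in 1 library, the longest lay at 11607792 to 11611808 (4017 bp), where replicate 1 covered 50.0% with a score of 1.90. It was followed by 7585045 to 7588598 (3554 bp) and 19628084 to 19631254 (3171 bp), both in replicate 2 alone, as 2 clusters each. The longest found in neither were 11838091 to 11841393 (3303 bp, score 0.639), the island at 2064555 already named, and 18394654 to 18396786 (2133 bp, score 0.585). The library clusters with the highest scores that lacked a partner in the other library included one of replicate 2 at 11557959 to 11559349 with a score of 3.19, the highest of that library in the stretch. The nearest replicate 1 cluster was 8882 bp away.

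Gap lengths varied widely. Whether they varied more than those of randomly placed islands was not tested. Gaps between neighbouring islands ran from 7 bp to 493671 bp, with a median of 35172.5 bp, quartiles of 11343.5 and 88577 bp, and a mean of 63375 bp with an SD of 78630 bp over the gaps. Of the gaps 17 were at most 1 kb and 76 at most 10 kb, while 69 were at least 100 kb. The latter together spanned 12.7 Mb, or 59.2% of the stretch. The libraries, with fewer clusters, had wider gaps, of median 59893 bp in replicate 1 and 59417.5 bp in replicate 2. Counted in 214 bins of 100 kb, 66 bins (30.8%) held no island, 58 held 1, 45 held 2 and 45 held 3 or more. The fullest bin, 600001 to 700000, held 9 islands, of which 4 were found in both libraries and 3 in neither.

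**Figure D3:**
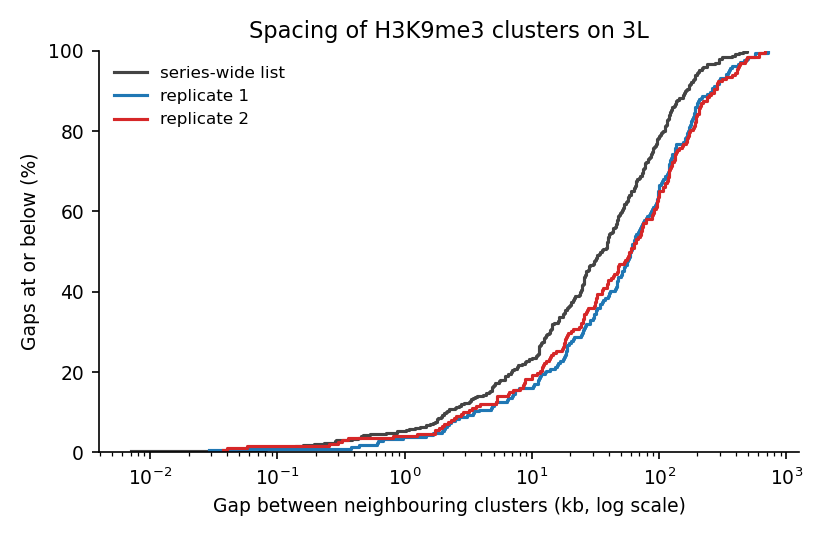
Cumulative share of gaps between neighbouring clusters of the stretch (vertical axis, percent) by gap length in kb (horizontal axis, log scale) for the series-wide list and both libraries. The curves of the libraries nearly coincide, with medians of 59893 and 59417.5 bp, and lie to the right of the series-wide curve, with a median of 35172.5 bp.

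Islands at most 10 kb apart were joined into local groups. There were 55 groups, which held 131 islands (40.1%), and 196 islands stood alone. Most groups were pairs: 42 held 2 islands, 7 held 3, 5 held 4 and 1 held 6. The median group spanned 8637 bp and the longest 33174 bp. Of the 55 groups 44 had at least 1 cluster in each library, 19 had at least 2 clusters in each, and 3 had none in either. Grouped and lone islands were alike in length, with medians of 1965 and 1969.5 bp, and in the share found in both libraries, 46.6% and 45.9%. With the same linking distance, 30.0% of replicate 1 clusters and 34.2% of replicate 2 clusters were in groups. The library lists were sparser, which by itself lowers this share, and the lists were not compared at equal density. The share depended on the distance, at 30.3% of islands with 5 kb and 57.5% with 20 kb.

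The largest group, at 3462107 to 3495280, held 6 islands on 33174 bp, of which 57.5% was covered. It began after an empty stretch of 272703 bp. Its 3 larger islands, of 2483, 5523 and 7983 bp, were found in both libraries, and its 3 smaller ones, of 1057, 1001 and 1040 bp, in neither. The 5523 bp island at 3480041 to 3485563 scored 1.33 in replicate 1 and 1.71 in replicate 2. The 7983 bp island at 3487298 to 3495280 scored 1.59 and 1.52 and was 1 cluster in replicate 1 but 2 in replicate 2.

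**Figure D4:**
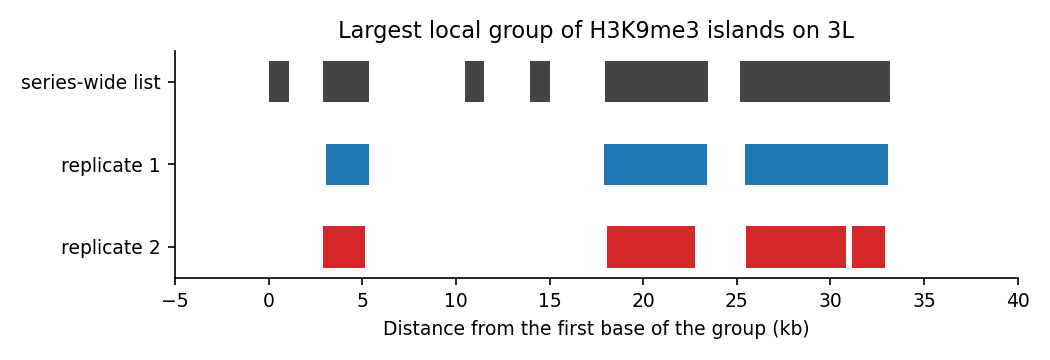
Clusters of the series-wide list, replicate 1 and replicate 2 (rows) in the largest local group of islands, by distance in kb from the first base of the group (horizontal axis). The 3 larger islands recur in both libraries, and the 3 islands of 1001 to 1057 bp appear in the series-wide list alone.

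The next group, at 11450085 to 11479400, held 4 islands on 29316 bp and was the most widely covered of the 5 groups with most members, at 70.1% in the series-wide list, 56.1% in replicate 1 and 52.9% in replicate 2. Of its islands 3 were found in both libraries, among them the 10678 bp island and its 5584 bp neighbour, only 138 bp apart. The group at 659948 to 687123 also held 4 islands, on 27176 bp, but only its 6482 bp island was found in both libraries. The groups at 19105583 to 19121486 and 1045170 to 1065229 were alike in this respect, each with 1 of 4 islands found in both libraries, 1 in replicate 1 alone and 2 in neither. In the group at 372375 to 391447, chosen after its values were seen as the last of those with 4 members, 1 island was found in both, 2 in replicate 1 alone and 1 in replicate 2 alone.

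Long stretches held no called island. With depth and the caller's threshold unknown, such a stretch is not shown to lack the mark. The 5 longest were in the outer and middle parts of the 3 defined above. The longest ran from 4610151 to 5103821 (493671 bp), and no cluster of either library touched it. It was also the longest stretch free of clusters in all 3 lists together. It was bounded by islands of 2028 and 2117 bp, both found in both libraries. The second, from 9455770 to 9910279 (454510 bp), was likewise untouched by either library and ended at the isolated 10958 bp island.

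The remaining 3 ran from 1635065 to 2062372 (427308 bp), from 6035935 to 6432061 (396127 bp) and from 8631964 to 9008500 (376537 bp). Only the first of these was touched by a library, over 51 bp at its edge by replicate 2. Empty stretches of at least 250 kb numbered 11 and spanned 3.93 Mb in all, and 9 of them enclosed no cluster of either library. The libraries had 22 such gaps each. Their longest were at 17993774 to 18704796 (711023 bp) in replicate 1 and 11965591 to 12643991 (678401 bp) in replicate 2. These enclosed 8 and 6 islands, of which 4 and 1 were found in the other library and 4 and 5 in neither, so they were empty in 1 list and not in the others.

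Some islands were far from any neighbour. At least 100 kb separated 18 islands from the islands on both sides, and 11 of these were found in both libraries. The longest was the 10958 bp island. Next were 20219530 to 20225844 (6315 bp) and 20040304 to 20045112 (4809 bp), which are neighbours with 174417 bp between them. The former scored 1.65 in replicate 1 and 1.36 in replicate 2, and the latter 0.945 and 0.992.

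The same rule was applied to arms 2L, X and 3R, with the limits mirrored on 3R, whose centromere lies at the low end. 3L resembled 2L and differed from X and 3R. It held 15.2 islands per Mb, where X had 35.4, 2L had 14.6 and 3R had 10.0. Replicate 1 gave 9.65 clusters per Mb for 3L, 24.8 for X, 9.09 for 2L and 6.21 for 3R, and replicate 2 gave 9.28, 23.4, 8.24 and 5.48 in that order. The order of the arms was the same in all 3 lists. The values of both libraries on 3L did not overlap those on 2L, but lay far closer to them than to those on X or 3R. Covered shares in the series-wide list followed the same order, with 8.86% for X, 3.58% for 3L, 3.44% for 2L and 2.35% for 3R. 3L lay 1.30 percentage points below the mean of the other arms (-1.30 as 3L minus mean), of which only X exceeded it.

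Island size varied less between arms than density did. In the series-wide list, median length was 2031 bp on X, 1966 bp on 3L, 1944.5 bp on 2L and 1864.5 bp on 3R. Below X this order did not hold in the libraries. Replicate 1 gave 2035 bp for 3L, 2043 bp for 2L and 1969.5 bp for 3R, and replicate 2 gave 1994, 2000 and 2015 bp. Islands of at least 5 kb numbered 2.43 per Mb for X, 0.904 for 2L, 0.886 for 3L and 0.806 for 3R. The share found in both libraries was 45.5% on 2L (95% exact interval 39.7 to 51.4%), 52.5% on X (48.7 to 56.3%) and 44.0% on 3R (37.7 to 50.4%), beside 46.2% on 3L. In the series-wide list the longest empty stretch was 822308 bp on 3R, 734360 bp on 2L, 493671 bp on 3L and 278279 bp on X. Of at least 250 kb there were 26 on 3R, 16 on 2L, 11 on 3L and 2 on X. In the libraries 3L and 2L were close in this count, at 22 and 18 in replicate 1 and 22 and 23 in replicate 2. The longest empty stretch of replicate 1 was on 2L (1083671 bp, against 822297 bp on 3R). In the series-wide list, local groups held 64.6% of islands on X, 46.6% on 2L, 40.1% on 3L and 35.1% on 3R. For 2L and 3L the libraries gave 39.8% and 30.0% in replicate 1, but 34.8% and 34.2% in replicate 2. A fixed linking distance joins more clusters where they are denser. The grouped shares of the arms were not compared at equal density. Arms are single items, and no test across them was made.

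**Figure D5:**
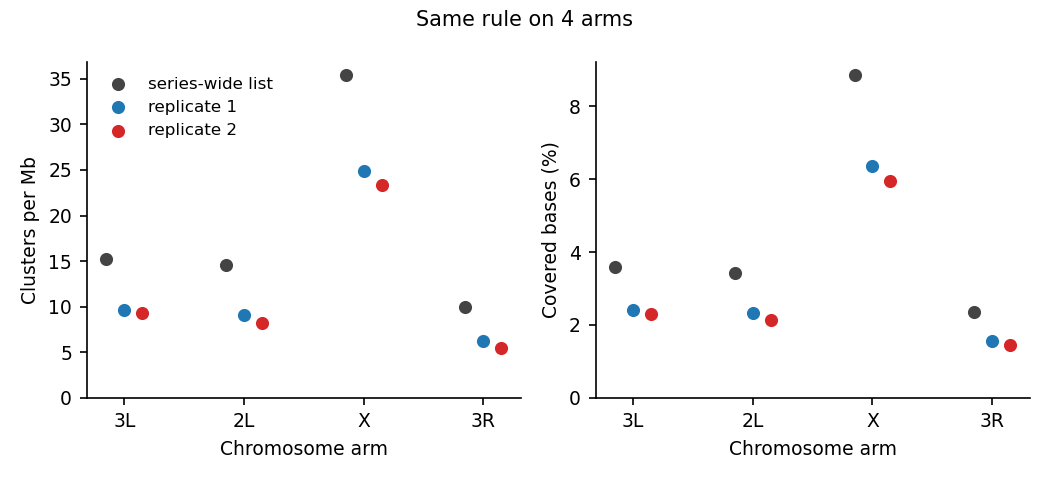
Clusters per Mb (left) and covered bases in percent (right) for 3L, 2L, X and 3R under the same rule, with 1 point for each list. 3L, at 15.2 islands per Mb and 3.58% in the series-wide list, lies beside 2L, below X and above 3R in each list.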

How the data were processed

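Bowtie 0.12.7 was the aligner, per the submitters' processing notes; the build is FlyBase release 5, per the file headers. The authors deposited lists of regions of significant enrichment, with a start, an end and a score per cluster. Not given in the sources used here are the scale of the score, the caller, its threshold and the read filters, and depth is unknown. Lists exist for each of the 2 ChIP libraries and for the series; no values of the inputs were used here.

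Lengths, gaps, covered shares, overlaps of at least 1 bp and groups linked by gaps of at most 10 kb were computed in Python 3.11.15 with numpy 2.4.6, pandas 2.3.3 and scipy 1.17.1, and tested on simulated intervals. Covered shares use the arm length in the headers, which may include unsequenced gaps. Intervals are exact at 95% and cover counting error only. With 2 libraries of 1 condition no test between groups exists.

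Members and lists were chosen with earlier results of these data known. Named regions are the 10 longest islands, the 5 with the highest score, the 5 groups with most members (ties by covered bases), the 5 longest empty stretches, the 3 longest found in 1 library and in neither, the 3 longest at least 100 kb from both neighbours, the 1 Mb windows with most and fewest islands, and the 2 clusters on either side of each limit. Other named regions were chosen after their values were seen. Genes were not placed, since the available table is on release 6. Alternatives were other lists, score, length, joining and overlap rules, limits of the stretch and linking distances.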

Additional observations from a re-analysis of the deposited data

How the results depend on the processing

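Each of 80 combinations of 10 results with an alternative was labelled. Of these, 41 stayed within 1 SD of the 2 libraries (counts within 1.5 times, rho within its approximate 95% interval) and 39 moved. An SD of 2 values is imprecise and does not measure the error of the series-wide value. For the median gap it was only 336 bp, so small changes were also labelled as moved. For the shares of islands and of bases in both libraries, that SD came from the shares in each library singly (2.59 and 2.56 points). Only the difference between arms could be labelled reversed, and it kept its sign under every alternative tried (0 reversed). The lists of replicates 1 and 2 alone gave 207 and 199 clusters, covered shares of 2.42% and 2.29%, median gaps of 59893 and 59417.5 bp, grouped shares of 30.0% and 34.2%, longest empty stretches of 711023 and 678401 bp, a median length of 2035 bp (replicate 1), and a difference of 3L from the mean of the other arms of -1.001 and -0.891 points instead of -1.30. Keeping the upper 50% of all scores of the list left 67 islands, 1.15% covered, a median length of 2867 bp, a median gap of 190028.5 bp, 17.9% grouped, a longest empty stretch of 1300829 bp, 67.2% found in both libraries, 72.2% of bases covered in both, a rho of 0.589 and an arm difference of -0.326 points. Islands of at least 1301 bp gave 3.30%, 2032 bp, a gap of 39515.5 bp, 55.3% found in both and 55.1% of bases. Both filters can only lower covered shares. Joining within 1 kb gave a gap of 39300 bp and 33.9% grouped. Linking at 5 and 20 kb gave 30.3% and 57.5%. An inner limit of 2 Mb gave a gap of 33991.5 bp and an arm difference of -1.45 points, and one of 4 Mb a gap of 35790 bp. Without either replicate, 58.1 to 61.8% of islands and 62.9 to 66.5% of island bases were found in the remaining library. These shares need 1 library in place of 2, so they could not be lower than the shares in both. What caused the remaining shifts was not tested. No paired analysis was possible because only the ChIP libraries have lists here, and the inputs that share their replicate numbers have no values. The unknown depth limits what an island missing from a library can show.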

Other observations

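The last, incomplete window of the stretch, 21100001 to 21543557, held 11 islands with a median length of 1300 bp, of which 1 was found in both libraries and 7 in neither. The share of this window's sequence covered was 1.47% in replicate 1 and 0.763% in replicate 2, against 3.70% in the series-wide list. Although it is the part of the stretch nearest to the centromere, dense coverage did not begin at the inner limit. An inner limit of 2 Mb raised the number of islands only from 327 to 345. It also left the covered share of the stretch within 1 SD of the 2 libraries.

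Bins of 100 kb with at least 5 islands numbered 12. A run of 3 neighbouring bins among them, from 11300001 to 11600000, fell in the densest window, with covered shares of 14.6%, 22.4% and 8.31% and 2, 4 and 2 islands found in both libraries. These bins were singled out after their values were seen.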
